A study of Mus musculus with 8 samples.

Results

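The sterol and fatty acid synthesis genes of mouse primary lung fibroblasts (pFBs) were examined as 1 module of 34 genes. The members were taken by gene symbol from a table of 54532 entries. No measured value entered this rule, but the list was chosen with earlier results of these data known. The members comprised 5 regulators, 17 enzymes of sterol synthesis, 1 sterol carrier, 9 enzymes of fatty acid synthesis and 2 sterol exporters. RNA sequencing covered 4 libraries of wild type (WT) pFBs and 4 libraries of pFBs homozygous (HOMO) for a transgene of human insulin-like growth factor-binding protein 5 (hIGFBP5), a secreted protein linked to fibrosis. All cells were on the C57/black background, came from female mice and received no treatment. The transgene was introduced with CRISPR/Cas9 and is driven by the Ef1a1 promoter, which is active in most cell types. Ages of the mice, and the number of mice behind the libraries, are not given in the sources used here. The study speaks of the HOMO libraries as individual mice, but its text and labels do not tie each library to an animal or culture, so the p-values measure the spread between these libraries, which may be partly technical.

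Cells make cholesterol from acetyl-CoA through the mevalonate pathway, which leads to squalene and then, through lanosterol, to cholesterol. The transcription factors of the sterol regulatory element-binding protein (SREBP) family turn on the enzymes of this pathway and those of fatty acid synthesis. When membrane sterols are scarce, the escort protein SCAP carries SREBP out of the endoplasmic reticulum for cleavage, whereas INSIG proteins hold the complex back when sterols are plentiful. Excess sterols activate the liver X receptors, which turn on exporters of cholesterol. Cultured fibroblasts can also take up cholesterol from serum lipoproteins.

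Promoter sequence was available for 26 of the 34 members in the RefSeq table of GRCm38.p6, as windows of 250 bases before to 50 bases after a transcription start. The members without a window were *Abcg1*, *Fads1*, *Fdft1*, *Fdps*, *Scd1*, *Scd2*, *Sqle* and *Stard4*. The windows were searched on both strands for the sterol regulatory element TCACNCCAC, for CCAAT, the box bound by the SREBP partner NF-Y, and for the E-box CACGTG. No motif contains another, and a match describes the sequence only. CCAAT occurred in 21 of 26 members (80.8%) against 41.1% of all 27025 genes with a window, and in 14 of 14 sterol synthesis genes (100%) against 3 of 6 fatty acid synthesis genes (50%). CACGTG occurred in 7 of 26 members (26.9%) against 8.09% of all genes. TCACNCCAC occurred in 1 of 26 members (3.85%) against 1.44% of all genes.

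Stretches from 3 promoters are printed 5′ to 3′ on the strand of the gene, with motif matches in capitals (ATTGG is CCAAT on the other strand). *Hmgcs1*, which encodes the enzyme that makes HMG-CoA, is shown because it alone held TCACNCCAC, at chr13:119690101-119690350 on the plus strand. *Nsdhl* and *Ebp* are shown because they were the 2 members that passed the test between genotypes, at chrX:72918412-72918520 on the plus strand and at chrX:8193513-8193762 on the minus strand. For *Nsdhl*, upstream bases that belong to exons of the neighbouring gene *Cetn2* were left out.
Hmgcs1: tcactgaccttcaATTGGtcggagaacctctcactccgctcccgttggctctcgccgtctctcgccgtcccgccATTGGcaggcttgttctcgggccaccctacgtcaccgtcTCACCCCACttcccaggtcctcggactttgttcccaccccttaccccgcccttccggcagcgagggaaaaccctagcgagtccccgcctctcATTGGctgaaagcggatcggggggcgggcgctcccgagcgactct
Nsdhl: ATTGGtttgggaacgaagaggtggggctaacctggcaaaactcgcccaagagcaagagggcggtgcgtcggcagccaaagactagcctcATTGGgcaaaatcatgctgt
Ebp: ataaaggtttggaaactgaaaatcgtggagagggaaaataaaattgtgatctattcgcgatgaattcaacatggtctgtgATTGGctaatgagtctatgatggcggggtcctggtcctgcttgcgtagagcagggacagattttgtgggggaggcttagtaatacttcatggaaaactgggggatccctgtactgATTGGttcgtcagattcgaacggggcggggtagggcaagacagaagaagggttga
The sterol regulatory element of *Hmgcs1* began 137 bases before the start, and its CCAAT matches 237, 176 and 45 bases before it. The matches of *Nsdhl* began 109 and 20 bases before its start, and those of *Ebp* 170 and 55 bases before its start. *Ebp* and *Nsdhl*, which moved in opposite directions between genotypes, both held CCAAT, as did all 14 sterol synthesis genes with a window. Neither held TCACNCCAC in these windows, like every other such gene except *Hmgcs1*. These matches therefore do not tell the 2 genes apart.

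The WT libraries held 17236521 to 29028769 counts and the HOMO libraries 19009027 to 31987790 counts, so that 3 counts corresponded to 0.0908 to 0.172 CPM (counts scaled to the TMM-adjusted library size). Some libraries stood closer to each other than replicates usually do: the biological coefficient of variation was 7.65% between WT1 and WT2, 4.71% between HOMO1 and HOMO2 and 5.07% between HOMO3 and HOMO4, against 30.0% to 56.4% for the other pairs within a genotype. The 6 fibroblast markers summed to 8949 to 12201 CPM in WT and 11632 to 20282 CPM in HOMO, mostly through *Col1a1* and *Col1a2*, while *Thy1* averaged 207 CPM in WT and 67.4 CPM in HOMO (log2 fold change −1.62, edgeR adjusted p = 0.116). In contrast, 6 epithelial markers summed to 0.338 to 5.57 CPM in WT and to 3.88 to 11.3 CPM in HOMO. Among them *Cdh1* was low but upregulated (log2 fold change 2.77, edgeR adjusted p = 0.0462). It was at most 0.503 CPM in WT and at 1.16 to 2.21 CPM in HOMO. For 4 endothelial markers the sum was at most 4.22 CPM in any library. The 4 mesothelial markers summed to 21.3 to 152 CPM in WT and 90.1 to 129 CPM in HOMO. Of these, *Wt1* was at 1.13, 1.12, 8.66 and 2.13 CPM in WT and at 36.8, 40.6, 29.0 and 26.8 CPM in HOMO. It was upregulated (log2 fold change 3.36, edgeR adjusted p = 0.0166), whereas *Msln*, *Upk3b* and *Lrrn4* overlapped between genotypes. The 6 leukocyte markers summed to 1871 CPM in WT3 and 1098 CPM in WT4 but to 23.4 to 156 CPM in the other 6 libraries. The 6 proliferation markers summed to 1072, 956, 145 and 63.0 CPM in WT1 to WT4 and to 166, 159, 849 and 766 CPM in HOMO1 to HOMO4. Of all 14150 genes tested with edgeR, 12.1% were differentially expressed genes (DEGs), defined by an absolute log2 fold change over 0.6 at an adjusted p (Benjamini-Hochberg) below 0.05.

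All 34 members passed the filter on low counts, and 2 of them (5.88%) were DEGs against the background of 12.1%. *Ebp* was upregulated in HOMO (background of upregulated genes 5.94%) and *Nsdhl* was downregulated (background 6.18%). Levels of the other 32 members did not pass the test, with edgeR adjusted p between 0.0619 and 0.982. An unadjusted edgeR p under 0.05 was found for 11 members (32.4%) and for 32.3% of all genes tested, so the share among members was near the background. The WT and HOMO libraries did not overlap for 5 members (14.7%), against 27.3% of all genes tested. Log2 fold changes were negative, meaning lower in HOMO, for 23 members (67.6%, against 52.7% of all genes tested) and positive for 11. The median over the members was −0.31, against −0.04 over all genes. In these bulk cultures, fewer cells of a type and less RNA per cell cannot be told apart.

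**Figure D1:**
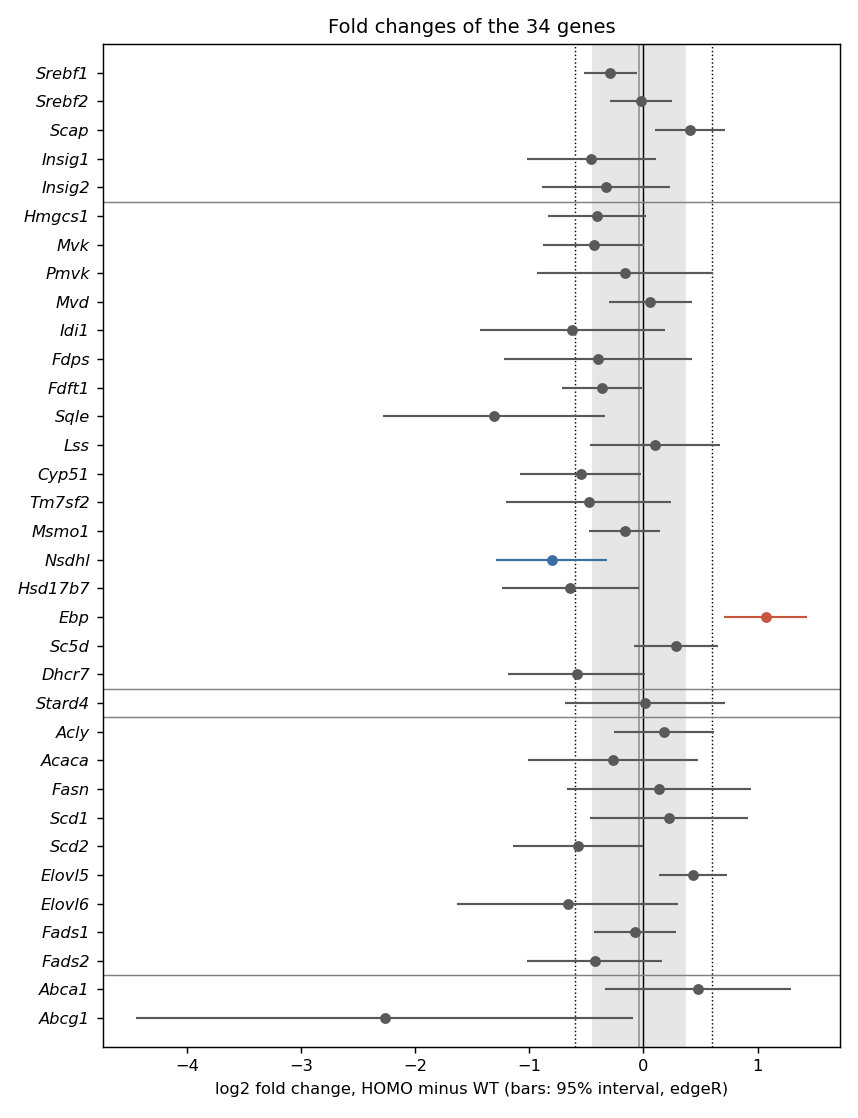
Log2 fold change of HOMO against WT for each of the 34 members, with 95% intervals from edgeR, by group. The grey band is the interquartile range over all tested genes (−0.44 to 0.37) and dotted lines mark ±0.6; *Ebp* (red) at 1.07 and *Nsdhl* (blue) at −0.80 were the 2 DEGs.

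The 5 regulators held no DEG. *Srebf1*, which encodes the SREBP gene most tied to fatty acid synthesis, was at 151, 141, 146 and 135 CPM in WT1 to WT4 and at 117, 119.6, 118 and 114 CPM in HOMO1 to HOMO4. All 4 HOMO libraries lay below all 4 WT libraries (background of genes lower in HOMO without overlap, 13.4%). WT averaged 143 ± 6.97 CPM and HOMO averaged 117 ± 2.21 CPM (SD, n = 4 each), and the log2 fold change was −0.29 (SE 0.10, edgeR adjusted p = 0.0888). *Srebf2*, the SREBP gene most tied to sterol synthesis, was at 242, 239, 210.3 and 270.1 CPM in WT and at 233, 232, 238 and 245 CPM in HOMO. The HOMO values lay inside the WT range, and the log2 fold change was −0.02 with a 95% interval from −0.29 to 0.25 (edgeR adjusted p = 0.932).

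*Scap*, which encodes the escort of SREBP, stood higher in every HOMO library than in any WT library (background of genes higher in HOMO without overlap, 14%). It was at 136, 146, 177 and 127 CPM in WT and at 199.9, 207, 186 and 185 CPM in HOMO. Its log2 fold change was 0.41 (SE 0.14, edgeR adjusted p = 0.0799), and 13.2% of its exon bases are shared with an annotated transcript on the opposite strand, whose reads could not be told apart without a known strand setting. *Insig1*, an INSIG gene that SREBP itself turns on, was at 176, 228, 113 and 204 CPM in WT and at 110.4, 99.2, 157 and 159 CPM in HOMO. Only HOMO1 and HOMO2 lay below all WT libraries, and the log2 fold change was −0.46 (SE 0.25, edgeR adjusted p = 0.238). *Insig2*, the INSIG gene less tied to SREBP, was at 34.1, 40.7, 61.1 and 66.3 CPM in WT and at 47.0, 48.0, 32.2 and 34.3 CPM in HOMO. These ranges overlapped, with a log2 fold change of −0.32 (SE 0.25, edgeR adjusted p = 0.396).

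**Figure D2:**
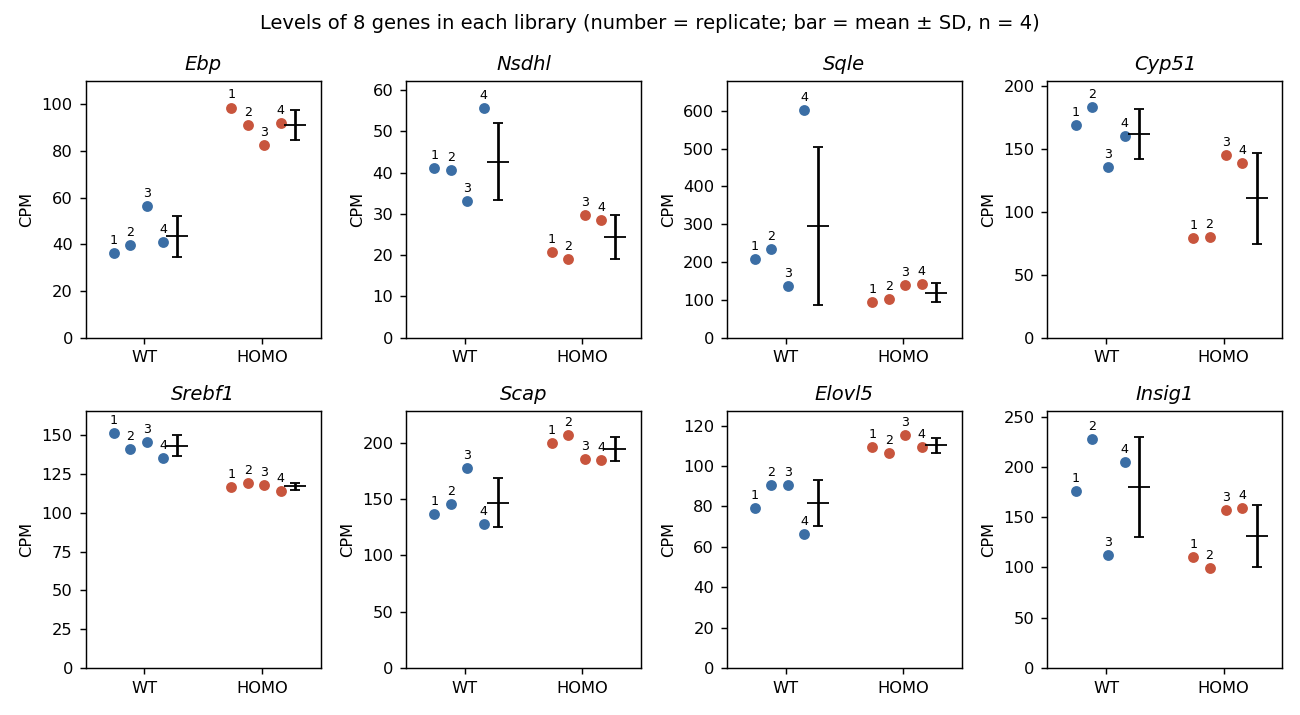
CPM in each library of 8 members, with the mean and SD of each genotype (n = 4). *Ebp*, *Scap* and *Elovl5* are higher and *Srebf1* and *Nsdhl* lower in all 4 HOMO libraries, whereas *Sqle*, *Cyp51* and *Insig1* overlap between genotypes.

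Among the 17 sterol synthesis genes, 2 (11.8%) were DEGs, near the background of 12.1%. A negative log2 fold change was found for 13 of the 17 (76.5%), against 52.7% of all genes tested. The median log2 fold change of the 17 genes was −0.41, with a range of −1.31 to 1.07. *Ebp*, the emopamil-binding protein, is a sterol isomerase that acts late in the pathway, and its gene lies at X:8185329-8193512 on the minus strand of GRCm38. It was at 36.3, 39.8, 56.2 and 41.0 CPM in WT1 to WT4 and at 98.5, 91.0, 82.5 and 91.8 CPM in HOMO1 to HOMO4. Every HOMO library exceeded the highest WT library. WT averaged 43.3 ± 8.82 CPM and HOMO averaged 91.0 ± 6.56 CPM (SD, n = 4 each), a 2.10-fold increase. The log2 fold change was 1.07 (SE 0.16, 95% interval 0.71 to 1.43, edgeR adjusted p = 0.00640), and DESeq2 gave an adjusted p of 1.57e-06. *Ebp* remained a DEG when any 1 library was left out (edgeR adjusted p 0.000880 to 0.0282). Its log2 fold change was 1.02 (edgeR adjusted p = 0.280) when each near-identical pair was summed to 1 library and 1.02 (edgeR adjusted p = 0.114) when HOMO1 and HOMO2 were left out, so that its direction held and its call was lost.

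*Nsdhl*, a sterol dehydrogenase that helps to remove methyl groups from lanosterol products, lies at X:72918557-72958514 on the plus strand. It was at 41.2, 40.6, 33.2 and 55.7 CPM in WT and at 20.7, 19.1, 29.7 and 28.4 CPM in HOMO. All HOMO libraries lay below all WT libraries, with HOMO3 and HOMO4 closest to WT3. WT averaged 42.7 ± 9.43 CPM and HOMO averaged 24.5 ± 5.34 CPM (SD, n = 4 each), and WT stood 1.74-fold above HOMO. The log2 fold change was −0.80 (SE 0.21, 95% interval −1.29 to −0.32, edgeR adjusted p = 0.0420), and DESeq2 gave an adjusted p of 0.0130. The call was kept without WT3 (edgeR adjusted p = 0.0235) but lost when any of the other 7 libraries was left out (0.0588 to 0.132), when HOMO1 and HOMO2 were left out together (0.385) and when near-identical pairs were summed (0.393).

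*Ebp* and *Nsdhl* were the 2 members on chromosome X, over which 445 tested genes had a median log2 fold change of −0.11. Per kilobase of exon, the ratio of the level of *Ebp* to that of *Nsdhl* was 1.09, 1.21, 2.09 and 0.907 in WT1 to WT4 and 5.87, 5.88, 3.43 and 3.99 in HOMO1 to HOMO4. Thus 2 enzymes of the same branch stood at near-equal levels in 3 of 4 WT libraries and apart in every HOMO library. The ratio was chosen after the values were seen and carries no test.

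The other sterol synthesis genes are given by their position in the pathway. For *Hmgcs1*, the entry enzyme, the levels were 83.1 to 112 CPM in WT and 59.3, 56.7, 87.4 and 89.6 CPM in HOMO1 to HOMO4, with a log2 fold change of −0.41 (edgeR adjusted p = 0.173). Opposite-strand entries share 12.1% of the exon bases of *Hmgcs1*. The mevalonate kinase gene *Mvk* had a log2 fold change of −0.44 (edgeR adjusted p = 0.162), with HOMO1 and HOMO2 at 28.7 and 28.05 CPM against a lowest WT value of 36.9 CPM. The next kinase and decarboxylase, *Pmvk* and *Mvd*, had log2 fold changes of −0.16 and 0.06. *Mvd* was below all WT libraries in HOMO1 and HOMO2 and above them in HOMO3 and HOMO4. *Idi1*, which encodes the isomerase of isoprenoid units, was at 17.4 to 42.4 CPM in WT and at 14.5, 13.8, 28.2 and 28.4 CPM in HOMO (log2 fold change −0.62, edgeR adjusted p = 0.260). *Fdps*, the farnesyl diphosphate synthase gene, had 2.12 to 5.36 CPM in all libraries, and 26.7% of its exon bases are shared on the same strand with another entry that holds 0 counts, so its level is uncertain.

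At the squalene steps, *Fdft1*, the squalene synthase gene, had a log2 fold change of −0.37 (edgeR adjusted p = 0.143), and 18.3% of its exon bases are shared with *Ctsb* on the opposite strand. *Sqle*, which encodes squalene epoxidase, a rate-limiting enzyme, had the most negative fold change of the sterol synthesis genes and is given by library for that reason, after its values were seen. It was at 209, 234, 137 and 603 CPM in WT and at 95.5, 101, 139 and 141 CPM in HOMO. WT4 stood far above the other WT libraries and WT3 lay within the HOMO range. The log2 fold change was −1.31 (SE 0.43, 95% interval −2.28 to −0.34, edgeR adjusted p = 0.0758). *Sqle* passed the test with DESeq2 (adjusted p = 0.0205) and in edgeR without WT3 (adjusted p = 0.0306), but without WT4 its log2 fold change was −0.69 (edgeR adjusted p = 0.0830).

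After squalene, *Lss*, the lanosterol synthase gene, had a log2 fold change of 0.10 and was lowest in WT3. *Cyp51*, the lanosterol demethylase gene, was at 136 to 183 CPM in WT and at 79.1, 80.1, 145 and 139 CPM in HOMO1 to HOMO4, again with HOMO1 and HOMO2 lowest (log2 fold change −0.55, SE 0.23, edgeR adjusted p = 0.145). *Hsd17b7*, a sterol ketone reductase gene, followed the same order, with 36.1 to 58.4 CPM in WT and 23.0, 22.5, 41.4 and 41.9 CPM in HOMO (log2 fold change −0.64, SE 0.27, edgeR adjusted p = 0.135). The sterol reductase gene *Tm7sf2* and the methyl oxidase gene *Msmo1* had log2 fold changes of −0.48 and −0.16, and 12.1% of the exon bases of *Tm7sf2* are shared with *Vps51*. The desaturase gene *Sc5d* had one of 0.29 (edgeR adjusted p = 0.252), and *Dhcr7*, the gene of a last reductase of the pathway, one of −0.59 (edgeR adjusted p = 0.164). Some chromosomes had shifted medians over all their tested genes. The median log2 fold change was 0.38 on chromosome 8, which holds *Mvd* and *Msmo1*, −0.29 on chromosome 7, which holds *Dhcr7*, −0.23 on chromosome 3, which holds *Pmvk*, *Fdps* and *Elovl6*, and −0.21 on chromosome 13, which holds *Hmgcs1* and *Idi1*. The part of these shifts in the values of the members was not tested.

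The HOMO libraries differed from each other in the sterol synthesis genes. Such a split is not particular to these genes. The study reports a weaker signature in the later-numbered pair of HOMO libraries across its DEGs, and reads it as variable transgene expression between mice. In HOMO1 and in HOMO2, 12 of the 17 genes (70.6%) lay below all 4 WT libraries, against 26.3% and 25.9% of all tested genes. They were the same 12 genes in both libraries, namely *Hmgcs1*, *Mvk*, *Mvd*, *Idi1*, *Fdps*, *Fdft1*, *Sqle*, *Cyp51*, *Msmo1*, *Nsdhl*, *Hsd17b7* and *Dhcr7*. In HOMO3 there were 4 such genes (23.5%, background 21.1%) and in HOMO4 there was 1 (5.88%, background 20.8%). Above all 4 WT libraries lay 1 gene each in HOMO1 and HOMO2 (5.88%, background 27%), 3 in HOMO3 (17.6%, background 21.5%) and 4 in HOMO4 (23.5%, background 21.6%). The median difference of the sterol synthesis genes from their WT means, on the log2 CPM scale, was −0.70, −0.75, −0.15 and −0.11 in HOMO1 to HOMO4 and between −0.03 and 0.05 in the WT libraries, which set those means. Leaving out HOMO1 and HOMO2 changed the median log2 fold change between genotypes from −0.41 to −0.18, and leaving out HOMO3 and HOMO4 changed it to −0.73. HOMO1 and HOMO2 were near-identical libraries and so were HOMO3 and HOMO4, so these are 2 patterns rather than 4, and no test of their difference was made. Several markers differed between the same libraries. The 4 smooth muscle markers, mostly through *Acta2*, summed to 827, 768, 2705 and 861 CPM in WT1 to WT4. The sums were 198 and 205 CPM in HOMO1 and HOMO2 and 1450 and 1426 CPM in HOMO3 and HOMO4. The study counts *Acta2* among genes of a fibrotic phenotype of pFBs, so this sum does not separate muscle cells from fibroblasts. *Thy1* was at 25.6 and 22.3 CPM in HOMO1 and HOMO2, at 109 and 112 CPM in HOMO3 and HOMO4, and at 71.7 CPM or more in WT. The leukocyte sum was 24.2 and 23.4 CPM in HOMO1 and HOMO2 against 134 and 156 CPM in HOMO3 and HOMO4, and the proliferation sum was also lower in HOMO1 and HOMO2. The part of these cell features, or of the transgene level, in the sterol synthesis values was not tested.

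**Figure D3:**
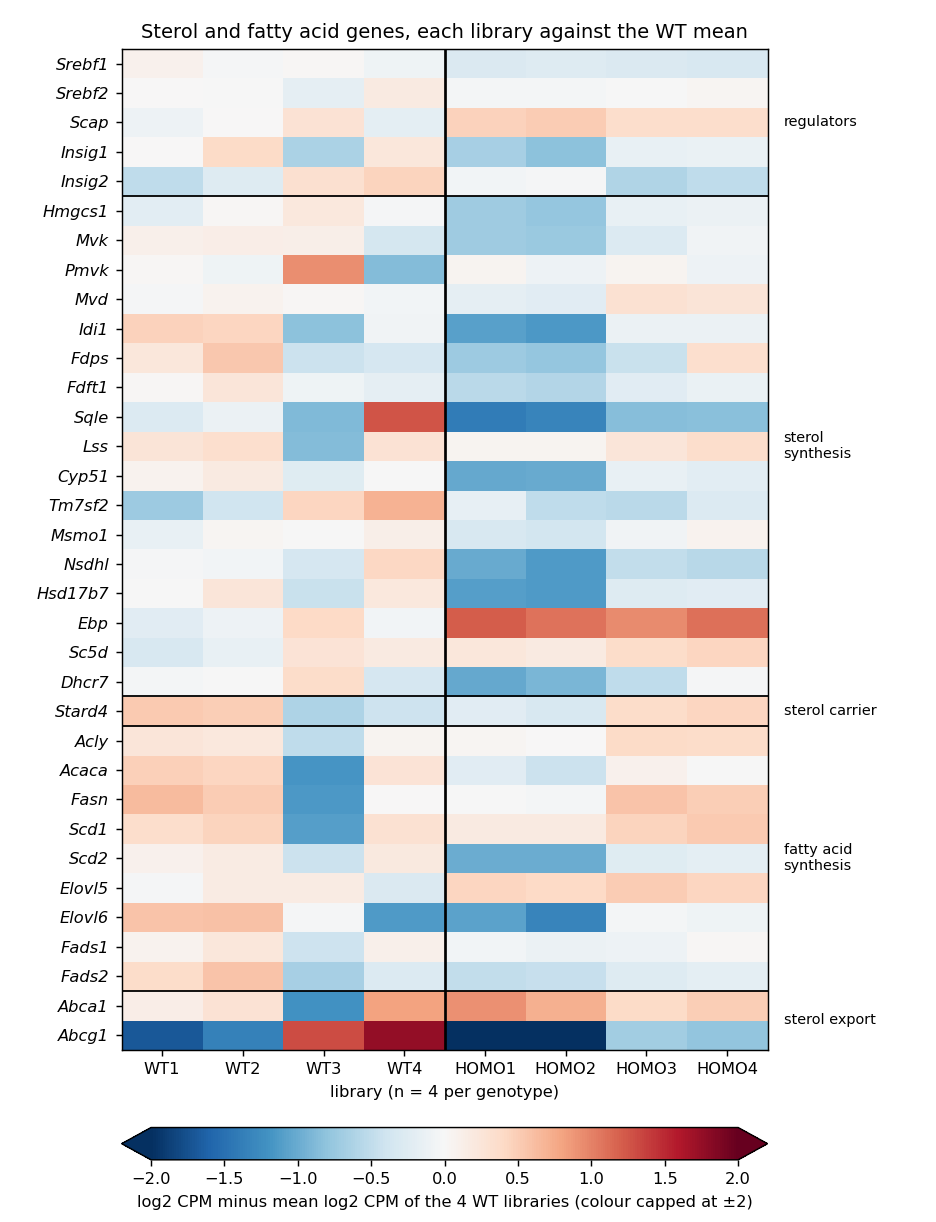
Heat map of log2 CPM minus the WT mean for the 34 members (rows, by group) in the 8 libraries (columns). Most sterol synthesis genes are low in HOMO1 and HOMO2, with medians of −0.70 and −0.75, and near the WT mean in HOMO3 and HOMO4, with medians of −0.15 and −0.11, while many fatty acid synthesis genes are low in WT3, with a median of −0.50.

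Among the 9 fatty acid synthesis genes none was a DEG with edgeR or with DESeq2. An unadjusted edgeR p under 0.05 was found for 2 (22.2%), against 32.3% of all genes tested. The median log2 fold change of the 9 genes was −0.08, and 5 values were negative and 4 positive. Without WT3 the median was −0.20. *Elovl5*, an elongase of polyunsaturated fatty acids, was at 79.3, 90.6, 90.5 and 66.2 CPM in WT and at 109.6, 107, 115 and 109.5 CPM in HOMO. It was higher in every HOMO library than in any WT library, with means of 81.7 ± 11.6 CPM (SD, n = 4) and 110.2 ± 3.62 CPM (SD, n = 4). Its log2 fold change was 0.43 (SE 0.13, edgeR adjusted p = 0.0619), and with DESeq2 the adjusted p was 0.0433 at a fold change under the threshold.

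The enzymes that make saturated fatty acids overlapped between genotypes. *Acly*, which supplies cytosolic acetyl-CoA, had a log2 fold change of 0.18, *Acaca*, the acetyl-CoA carboxylase gene, −0.27, and *Fasn*, the fatty acid synthase gene, 0.14. WT3 was the lowest library for all 3 genes. *Fasn*, for example, was at 603, 555, 176 and 390.3 CPM in WT and at 389, 381, 577 and 548 CPM in HOMO. The elongase gene *Elovl6* had a log2 fold change of −0.66 (edgeR adjusted p = 0.314) with 19.3 to 63.9 CPM in WT. The desaturase genes *Fads1* and *Fads2*, which lie side by side on chromosome 19, had values of −0.08 (edgeR adjusted p = 0.777) and −0.43 (edgeR adjusted p = 0.287).

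The stearoyl-CoA desaturase genes *Scd1* and *Scd2*, close relatives on chromosome 19, make monounsaturated fatty acids. *Scd2* had the highest level of all members per kilobase of exon, with a mean of 196 CPM per kilobase in WT and 132 in HOMO, and *Scd1* stood at 52.9 and 61.9 CPM per kilobase. *Scd2* was at 1119.9, 1179, 786 and 1207 CPM in WT and at 529.6, 529.4, 897 and 925 CPM in HOMO, with HOMO1 and HOMO2 lowest (log2 fold change −0.57, SE 0.25, edgeR adjusted p = 0.153). *Scd1* was at 304, 327, 111 and 294 CPM in WT and at 271, 271, 326 and 342 CPM in HOMO (log2 fold change 0.22, SE 0.31, edgeR adjusted p = 0.647). The ratio of *Scd2* to *Scd1* per kilobase was 3.30, 3.23, 6.32 and 3.67 in WT and 1.75, 1.75, 2.46 and 2.42 in HOMO. The ratio was lower in all 4 HOMO libraries without overlap, was chosen after the values were seen, and is uncertain to the extent that reads of these similar genes were split between them.

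**Figure D4:**
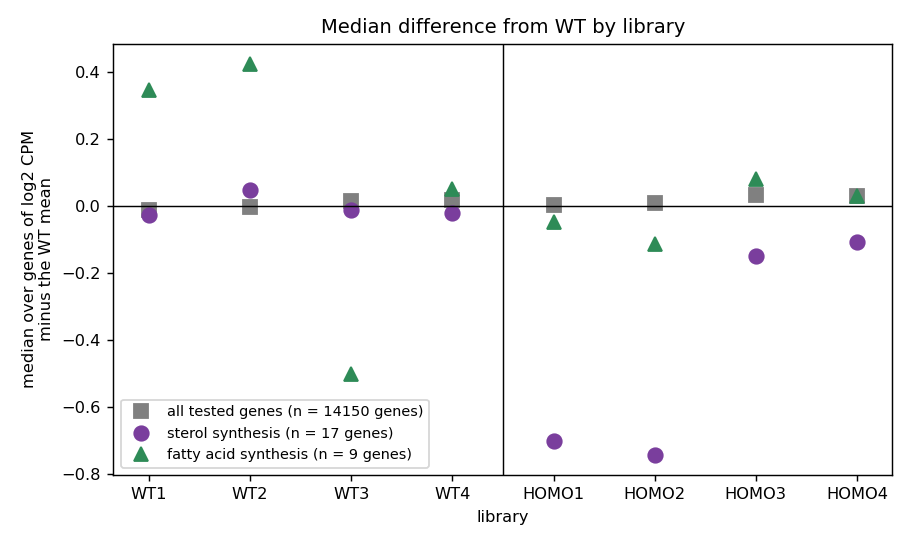
Median difference from the WT mean, in log2 CPM, of the sterol synthesis, fatty acid synthesis and all tested genes in each library. The medians of all genes stay between −0.01 and 0.03, the sterol synthesis medians are lowest in HOMO1 and HOMO2, and the fatty acid synthesis median is lowest in WT3 at −0.50.

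*Stard4*, a cytosolic sterol carrier gene that SREBP turns on, was at 58.7, 57.5, 26.6 and 30.6 CPM in WT and at 35.0, 32.8, 52.4 and 55.0 CPM in HOMO. These values fell into a high and a low level within each genotype, and the log2 fold change was 0.01 (SE 0.31, edgeR adjusted p = 0.982). It lies on chromosome 18, where the median over all tested genes was −0.31. The exporter gene *Abca1* was at 195, 218, 77.2 and 311 CPM in WT and at 338, 292, 233 and 253 CPM in HOMO (log2 fold change 0.48, edgeR adjusted p = 0.389). *Abcg1*, an exporter gene expressed highly in macrophages, was at 0.788, 1.03, 6.94 and 9.52 CPM in WT and at 0.401, 0.212, 1.67 and 1.55 CPM in HOMO. It was highest in WT3 and WT4, the libraries in which leukocyte markers were also highest. The log2 fold change was −2.27 (SE 0.96, edgeR adjusted p = 0.143, DESeq2 adjusted p = 0.0428). Without WT3 and WT4 it was 0.04 (edgeR adjusted p = 0.977), and leaving out this pair was chosen after the values were seen. WT3 and WT4 also had the lowest proliferation sums in WT (145 and 63.0 CPM). The part of leukocytes or of other cell features in the *Abcg1* values was not tested.

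**Figure D5:**
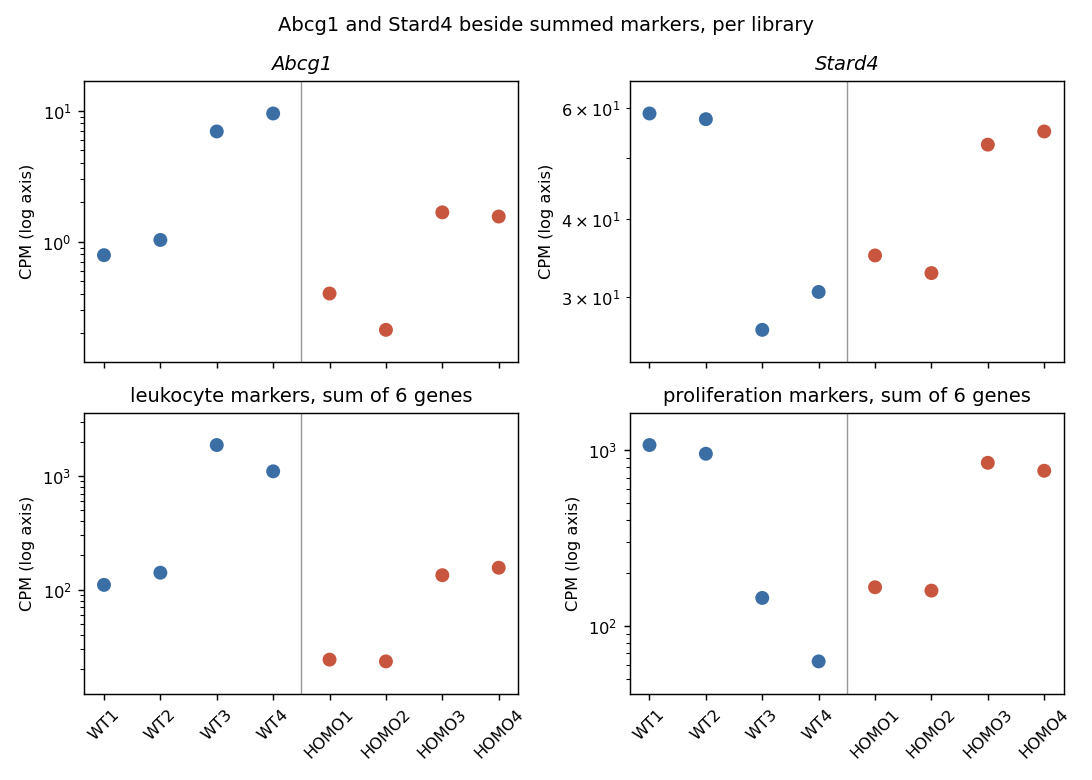
CPM on a log axis of *Abcg1*, *Stard4* and the summed leukocyte and proliferation markers in each library. *Abcg1* and the leukocyte markers are both highest in WT3 and WT4, where the markers sum to 1871 and 1098 CPM.

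A further 68 genes of the same pathways, listed by their roles, were examined, and 64 of them passed the filter. Of these, 4 (6.25%) were DEGs, against 12.1% of all genes tested in either direction. All 4 were downregulated, against a background of 6.18% for downregulated genes. *Fads3*, a desaturase-related gene beside *Fads1* and *Fads2*, was at 226, 217, 224 and 263 CPM in WT and at 117, 112, 140.4 and 159 CPM in HOMO (log2 fold change −0.82, SE 0.15, edgeR adjusted p = 0.0127). *Hsd17b12*, a reductase of fatty acid elongation, was at 178, 182, 161 and 172 CPM in WT and at 88.4, 88.9, 129 and 119 CPM in HOMO (log2 fold change −0.71, SE 0.16, edgeR adjusted p = 0.0231). For both genes all HOMO libraries lay below all WT libraries, and HOMO1 and HOMO2 were lowest.

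*Me1*, which encodes a malic enzyme that supplies NADPH, had a log2 fold change of −0.65 (SE 0.18, edgeR adjusted p = 0.0468). *Mylip*, a liver X receptor target that marks lipoprotein receptors for degradation, was at 8.33, 10.8, 37.8 and 24.3 CPM in WT and at 6.73, 7.29, 6.34 and 5.06 CPM in HOMO (log2 fold change −1.67, SE 0.46, edgeR adjusted p = 0.0456). Like *Abcg1*, it was highest in WT3 and WT4. None of these 4 genes was a DEG without HOMO1 or without HOMO2, where *Fads3* had an edgeR adjusted p of 0.0562 and 0.0546. *Mylip* and *Me1* were also lost without WT4 (edgeR adjusted p 0.0770 and 0.0691), HOMO3 (0.0976 and 0.0784) or HOMO4 (0.107 and 0.0871). *Hsd17b12* was also lost without WT2 (edgeR adjusted p = 0.0546) or HOMO4 (0.0505). The genes that did not pass the filter were *Elovl3*, *Scd3*, *Thrsp* and *Mlxipl*. *Mlxipl*, a carbohydrate-responsive transcription factor gene, averaged 0.120 CPM in WT and 0.670 CPM in HOMO (two-sided exact permutation p = 0.0286, the smallest that 70 assignments of the libraries allow). That test counts the libraries as independent, which the near-identical ones may not be. *Mlxipl* was named after its values were seen.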

How the data were processed

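Total RNA of pFBs was sequenced as 4 WT and 4 HOMO libraries made with a NEBNext kit. The deposited table holds raw read counts per gene, which the authors made by trimming with fastp, aligning with STAR to mm10 and counting with featureCounts. CASAVA and DESeq2 also appear in the submitters' processing notes, and the strand setting is not given in the sources used here. The table's name holds the word outlierout, and what was removed is not stated in the sources used here. Of 54532 entries, 27324 had at least 1 count and 100 symbols stood on more than 1 entry. All 8 library columns were used, so 0 were set aside. The human transgene was not analysed here.

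Libraries were grouped by the genotype in their labels. HOMO was compared with WT by the quasi-likelihood test of edgeR 4.0.16 (R 4.3.3, limma 3.58.1) on all 8 libraries, after filterByExpr and TMM normalization, with Benjamini-Hochberg adjustment over 14150 genes. DEGs needed an absolute log2 fold change over 0.6 with an adjusted p below 0.05. CPM used TMM-scaled library sizes, with a prior count of 2 on the log2 scale. Depth sets the precision of low genes, and intervals are 95%. The script was tested on simulated data. Alternatives were DESeq2 1.42.0, other normalizations and filters, limma-voom with sample weights, a replicate block, summed near-identical libraries and each library left out. Gene positions and exon overlaps came from GENCODE M21 (GRCm38, the same assembly as mm10). Figures were drawn with Python 3.11.15 and matplotlib 3.10.9. Members were named by library if they were DEGs, did not overlap between genotypes or were regulators, and other members mainly by ranges and counts. Of the further pathway genes, DEGs were named, and *Mlxipl* was named after its values were seen. The members, lists and rules were chosen with earlier results of these data known.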

Additional observations from a re-analysis of the deposited data

Results flagged for a closer look

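In each member gene and genotype, the highest and lowest of the 4 libraries were compared with the others by the size of their gap (Dixon's test). Of 68 such groups, 4 held a library that stood apart, all of them in WT. Every HOMO library had a near-identical partner, and so did WT1 and WT2, which leaves little gap to find. Only WT3 and WT4 had no such partner, so the place of the 4 groups in WT does not compare the genotypes. With 4 independent libraries chance gives about 1 in 20, a rate that does not apply as such here because some libraries were near-identical. *Lss* in WT3 was at 5.08 log2 CPM, below the 6.21 to 6.29 of WT1, WT2 and WT4. *Acaca* in WT3 was at 5.40 log2 CPM, against 6.86 to 7.07. *Scd1* in WT3 was at 6.80 log2 CPM, against 8.20 to 8.35. *Mvk* in WT4 was at 5.21 log2 CPM, against 5.65 to 5.70. WT3, with 3 of the 4, was also the library with the highest summed leukocyte markers (1871 CPM), mostly through *Lyz2* (1707 CPM). *Cd68* and *Itgam* were also higher in WT3 than in WT4. *Ptprc*, *Adgre1* and *Csf1r* were instead higher in WT4 (22.1, 54.4 and 44.5 CPM) than in WT3 (13.4, 38.0 and 40.4 CPM). *Lss*, *Acaca* and *Scd1* did not stand apart in WT4. The part of leukocytes in these values was not tested.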

How the results depend on the processing

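The number of DEGs among all genes was 1716. It was 2913 with DESeq2, 3573 with limma-voom, 947 with the replicate block, 0 in edgeR with near-identical libraries summed (2057 genes at an unadjusted p under 0.05), and 507 to 2192 with 1 library left out. Of the 34 members, 2 were DEGs. With DESeq2 there were 4 (background 16.5%), and with no filter on low counts 1 (background 5.28%). Under limma-voom there were 10 (background 25.3% in either direction). Of these 10, 9 were lower, while 1564 of all 14150 genes tested were DEGs lower in HOMO. With near-identical libraries summed there were 0 (1 member at an unadjusted edgeR p under 0.05), and with 1 library left out 1 to 3. Of the further pathway genes, 4 were DEGs. There were 7 with DESeq2 (background 16.5%), 11 with limma-voom (background 25.3%) and 1 with the replicate block (background 6.69%). With near-identical libraries summed there were 0, and with 1 library left out 0 to 4. Same-numbered WT and HOMO libraries did not deviate together (r = −0.09, −0.04, 0.01 and −0.12), and differently numbered ones had r from −0.17 to 0.17. Because near-identical libraries shape these deviations, the correlations cannot show whether the numbers pair the libraries. With the replicate number as a block 2 members were DEGs (background 6.69%), *Ebp* and *Abcg1*, and *Nsdhl* had an edgeR adjusted p of 0.0810. The sterol synthesis median stayed negative under every alternative run, between −0.50 and −0.30 with 1 library left out. The fatty acid synthesis median was −0.23 with limma-voom and −0.20 to 0.0014 with 1 library left out. Leaving out pairs of libraries was chosen after seeing the data. Without WT3 and WT4 there were 3117 DEGs (20.9% of genes tested), 4 among members and 9 among further pathway genes. The fatty acid synthesis median was then −0.29. Without HOMO1 and HOMO2 there were 76, 0 and 0 (2050 genes and 2 members at an unadjusted edgeR p under 0.05), and without HOMO3 and HOMO4 there were 913 DEGs. Of 646 recomputed member fold changes, 584 kept direction and call and 33 changed sign, all of genes that were not DEGs. With limma-voom the log2 fold changes that changed sign were 0.034 for *Pmvk*, −0.092 for *Lss*, 0.054 for *Tm7sf2*, −0.31 for *Stard4*, −0.16 for *Fasn* and −0.022 for *Scd1*. With upper-quartile normalization it was 0.0080 for *Srebf2*. With 1 library left out they ranged from −0.080 to 0.042 for *Srebf2*, −0.39 to 0.24 for *Pmvk*, −0.031 to 0.15 for *Mvd*, −0.12 to 0.20 for *Lss*, −0.16 to 0.19 for *Stard4*, −0.13 to 0.34 for *Fasn*, −0.028 to 0.35 for *Scd1* and −0.20 to 0.0014 for *Fads1*. Without WT3 and WT4 they were 0.11 for *Insig2*, 0.0050 for *Pmvk*, −0.12 for *Lss*, 0.19 for *Tm7sf2*, −0.41 for *Stard4*, −0.018 for *Acly*, −0.29 for *Fasn*, −0.060 for *Scd1* and 0.037 for *Abcg1*. Without HOMO3 and HOMO4 they were −0.19 for *Mvd*, −0.015 for *Lss*, −0.35 for *Stard4* and −0.16 for *Fasn*. Without HOMO1 and HOMO2 they were 0.016 for *Srebf2* and 0.0060 for *Msmo1*. Apart from the libraries left out, the causes of these changes were not tested. Depth limits mainly *Abcg1* and *Fdps*.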
